A study of Mus musculus with 6 samples.

Results

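Somite derivative genes are described here in male mouse embryos that lack or carry functional Smchd1, a chromatin protein of the structural maintenance of chromosomes family that is needed for X inactivation. The genes are 10 transcription factors of the somite epithelium, the somite compartments and their cartilage and tendon descendants, namely *Meox1*, *Meox2*, *Tcf15*, *Uncx*, *Tbx18*, *Pax1*, *Pax9*, *Nkx3-2*, *Sox9* and *Scx*. They were taken by symbol from the authors' expression table, in which each of the 10 had a single entry among 24207. RNA-seq had been done on 6 whole male embryos at E9.5, 3 of them Smchd1+/+ and 3 homozygous for the *MommeD1* allele, Smchd1MommeD1/MommeD1. *MommeD1* is a nonsense mutation of *Smchd1* from a chemical mutagenesis screen, it is present in every cell of the embryo, and embryos of all genotypes came from matings of heterozygous parents. The labels give the strains as C57Bl6/J and FVB/n. The study's text instead gives a cross of these strains for its placenta samples, and for these embryos a backcross to another strain, T2/SvEms. The table holds 1 FPKM value per genotype, pooled over the embryos. FPKM counts the fragments of a transcript relative to its length and to the mapped fragments of the library, so that levels of different genes can be compared. No value per embryo was used, so no spread between embryos, standard error or test is given for any difference below. Library depth is unknown. *Smchd1* itself was at 2.12 FPKM in Smchd1MommeD1/MommeD1 and 34.0 FPKM in Smchd1+/+ embryos.

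Somites are the paired blocks of mesoderm that bud from the presomitic mesoderm on each side of the neural tube. A new somite is an epithelial ball, for which Tcf15 (paraxis) is needed, and Meox1 and Meox2 act together in its patterning and in the muscle and vertebrae it forms. Each somite is divided into a rostral part marked by Tbx18 and a caudal part marked by Uncx. Its ventral cells become sclerotome under Hedgehog signals from notochord and floor plate, turn on *Pax1*, *Pax9* and *Nkx3-2*, and build the vertebrae and ribs. Sox9 is the master regulator of cartilage, and Scx (scleraxis) marks the tendon precursors that arise between sclerotome and muscle. Several of these genes are also used outside the somite, for example *Sox9* in neural crest, *Pax1* and *Pax9* in pharyngeal pouches and *Tbx18* in epicardium. In RNA from whole embryos such sources are summed, and fewer cells of a type cannot be told apart from less RNA per cell.

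Since the genes include close relatives, the coding sequences of related pairs were compared over windows of 100 bases, the length of a read. The most alike windows of 2 pairs are shown, taken from GENCODE M21 transcripts on GRCm38, the assembly also called mm10. They show how many bases could tell reads of the relatives apart, and the capitals mark the bases at which the pair differs. The *Pax1* and *Pax9* windows are exonic, at chr2:147365823-147365922 and chr12:56696664-56696763, both on the plus strand. The *Sox9* window is exonic at chr11:112782786-112782885 on the plus strand, and that of *Sox10*, the neural crest relative, at chr15:79163419-79163518 on the minus strand.
Pax1: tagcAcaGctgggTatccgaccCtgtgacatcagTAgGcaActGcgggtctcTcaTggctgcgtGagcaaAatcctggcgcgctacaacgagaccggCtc
Pax9: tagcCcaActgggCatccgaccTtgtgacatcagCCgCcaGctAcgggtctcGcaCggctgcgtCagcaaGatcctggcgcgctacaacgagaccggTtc
Sox9: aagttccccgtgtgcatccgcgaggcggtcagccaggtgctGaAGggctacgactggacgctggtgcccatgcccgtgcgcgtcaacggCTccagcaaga
Sox10: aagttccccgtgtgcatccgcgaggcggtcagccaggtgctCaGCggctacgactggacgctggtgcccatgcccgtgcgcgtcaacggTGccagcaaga

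The *Pax1* and *Pax9* windows differed at 14 of 100 bases. *Sox9* and *Sox10* came closest, with 5 differing bases and a longest identical run of 44 bases. *Tcf15* and *Scx*, which both encode basic helix-loop-helix factors, differed at 11 bases, as did *Sox9* and *Sox8*. In each of these pairs the most alike ungapped windows of read length thus held at least 5 differing bases within the coding sequence. How the aligner assigned reads in these windows was not tested.

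Overlap with other genes was a separate matter, because the libraries were not directional and reads of opposite strands cannot be told apart. *Scx*, on chromosome 15 from 76457452 to 76459458, lies inside an intron of *Bop1*, a ribosome assembly gene on the opposite strand, and shares 0 exonic bases with it. *Bop1* was at 44.7 FPKM in Smchd1MommeD1/MommeD1 and 48.7 FPKM in Smchd1+/+ embryos, 48.8 and 77.5 times the level of *Scx*. *Pax9*, on chromosome 12 from 56691767 to 56712822, shares 189 of its 5056 exonic bases with *Slc25a21*, a mitochondrial carrier gene on the opposite strand, which was at 1.42 and 1.07 FPKM. *Tbx18*, on chromosome 9 from 87702800 to 87731260, shares 970 of 4718 exonic bases with the opposite-strand transcript *D030062O11Rik*. The annotated *Pax1* gene, on chromosome 2 from 147361925 to 147393295, shares 183 of 4492 with the antisense gene *AI646519*, which ends at 147362793. The authors' entry for *Pax1* spans only 147364595 to 147375048, so these shared bases lie outside it. No exonic base of *Meox1*, *Meox2*, *Tcf15*, *Uncx*, *Nkx3-2* or *Sox9* was shared with another annotated gene. The part of overlapping reads in the values below was not tested.

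The somite derivative genes differed between the pooled values of the genotypes by 0.04 to 0.48 on the log2 scale, in either direction. A mean of 1 FPKM or more was reached by 9 of them, of which 6 were higher and 3 lower in Smchd1MommeD1/MommeD1 embryos, and their median log2 ratio was 0.07. Log2 ratios are of Smchd1MommeD1/MommeD1 over Smchd1+/+ after 0.1 FPKM was added to each value. Among all 12345 entries at or above that mean, 48.3% were higher and 51.7% lower, with a median of -0.01. None of the 9 differed by 1.5-fold or more, a size that 3.54% of all entries reached upwards and 1.46% downwards. With shares this small in the background, the absence of such a difference among 9 genes is not a result about them. *Scx*, the tenth gene, was below 1 FPKM in each genotype and is given only as a value.

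The 10 genes summed to 74.7 FPKM in Smchd1MommeD1/MommeD1 and 76.0 FPKM in Smchd1+/+ embryos. *Meox1* and *Tcf15* together made up 51.2% of that sum in Smchd1MommeD1/MommeD1 embryos and 58.1% in Smchd1+/+ embryos. The order of the levels was the same in the genotypes except for one exchange. It ran from *Meox1* through *Tcf15*, *Sox9*, *Pax1* and *Meox2* to *Pax9*, *Nkx3-2* and *Scx*, and *Uncx* stood above *Tbx18* in Smchd1+/+ but below it in Smchd1MommeD1/MommeD1 embryos. The Smchd1+/+ levels spanned 0.629 to 24.9 FPKM, while no counted gene differed between genotypes by more than 0.32 on the log2 scale.

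**Figure D1:**
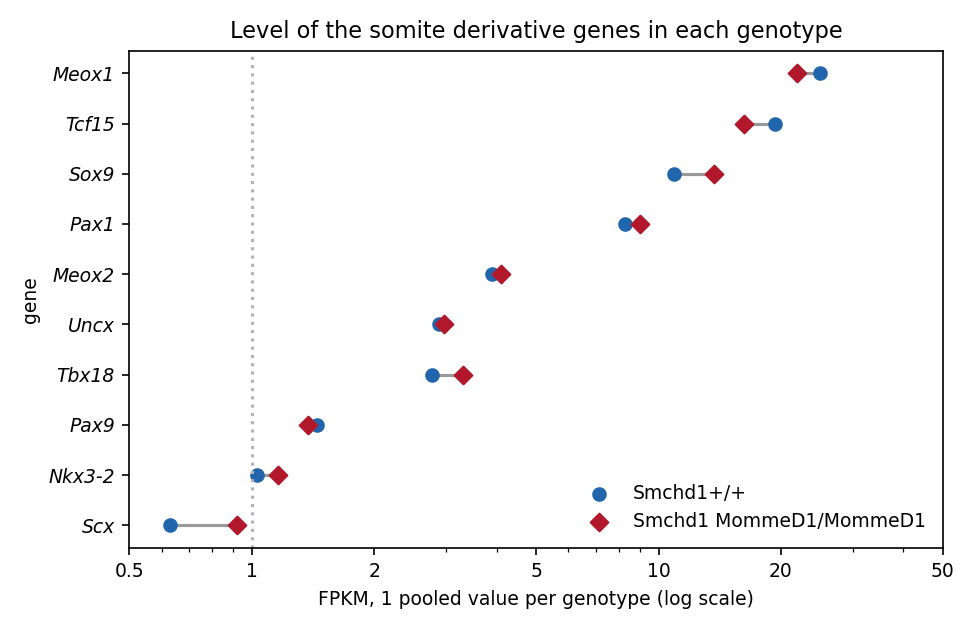
FPKM of each somite derivative gene (1 pooled value per genotype, log scale) in Smchd1+/+ embryos (blue circles) and Smchd1MommeD1/MommeD1 embryos (red diamonds), ordered by the Smchd1+/+ level; the dotted line is 1 FPKM. *Meox1* and *Tcf15* lie to the left in the mutant, *Sox9*, *Tbx18* and *Scx* to the right, and the order of the mutant levels differs only for *Uncx* and *Tbx18*.

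Among the factors of the somite epithelium, the most abundant pair was lower in the mutant embryos. *Meox1* (chromosome 11, 101877510 to 101894374) was at 21.9 FPKM in Smchd1MommeD1/MommeD1 and 24.9 FPKM in Smchd1+/+ embryos, a log2 ratio of -0.18. *Tcf15* (chromosome 2, 152143561 to 152149097) was at 16.2 and 19.3 FPKM, a log2 ratio of -0.25. After 0.1 FPKM was added, these levels were 1.13-fold and 1.19-fold below those of the wildtype. As a yardstick, 22.5% of the 4093 entries whose mean FPKM was within 2-fold of that of *Meox1* had a log2 ratio at least as far from 0. For *Tcf15* this was 12.9% of 4410. The yardstick is a spread between genes and not between embryos. *Meox2*, the less abundant relative of *Meox1*, located on chromosome 12 (37108540 to 37179534), was at 4.09 and 3.89 FPKM, a log2 ratio of 0.07. *Meox1* was 5.36 times as abundant as *Meox2* in Smchd1MommeD1/MommeD1 and 6.40 times in Smchd1+/+ embryos.

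The markers of the somite compartments were at a few FPKM. *Uncx*, the homeobox gene of the caudal part (chromosome 5, 139543494 to 139548179), was at 2.96 FPKM in Smchd1MommeD1/MommeD1 and 2.88 FPKM in Smchd1+/+ embryos, a log2 ratio of 0.04. *Tbx18*, the T-box gene of the rostral part, was at 3.31 and 2.77 FPKM, a log2 ratio of 0.24. Among entries of like level, 86.3% lay at least as far from 0 as *Uncx* and 33% as *Tbx18*. The ratio of caudal to rostral marker was 0.897 in Smchd1MommeD1/MommeD1 and 1.04 in Smchd1+/+ embryos, and no scaling between the libraries can alter it.

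The sclerotome factors differed by 0.16 or less on the log2 scale after 0.1 FPKM was added. *Pax1*, a paired-box gene of the ventral sclerotome, was the most abundant, at 8.98 FPKM in Smchd1MommeD1/MommeD1 and 8.25 FPKM in Smchd1+/+ embryos, a log2 ratio of 0.12. Its relative *Pax9* was at 1.37 and 1.45 FPKM, a log2 ratio of -0.07. *Nkx3-2* (Bapx1), a homeobox gene that acts downstream of *Pax1* and *Pax9* (chromosome 5, 41761483 to 41764501), was at 1.16 and 1.03 FPKM, a log2 ratio of 0.16. Near 1 FPKM the ratios of all genes scattered widely. Between the 5th and the 95th percentile, entries as abundant as *Nkx3-2* had log2 ratios of -0.61 to 0.99, and 65.7% of them lay at least as far from 0. *Pax1* was 6.54 times as abundant as *Pax9* in Smchd1MommeD1/MommeD1 and 5.71 times in Smchd1+/+ embryos, and 7.73 and 8.03 times as abundant as *Nkx3-2*.

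The regulators of cartilage and tendon precursors had the highest ratios of the group. *Sox9* (chromosome 11, 112782224 to 112787760) was at 13.7 FPKM in Smchd1MommeD1/MommeD1 and 10.9 FPKM in Smchd1+/+ embryos, a log2 ratio of 0.32. Among 4676 entries of like level, 9.0% lay at least as far from 0, with 0.33 as the 95th percentile of the log2 ratios. *Sox9* was the counted gene farthest from 0 and the one nearest to the edge of that spread. *Scx* was at 0.917 and 0.629 FPKM, a log2 ratio of 0.48, and 31.0% of entries as abundant as *Scx* had a ratio at least as far from 0. The ratio of *Scx* was 0.24 when 1 FPKM is added in place of 0.1, so it rests on the low end of the scale.

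**Figure D2:**
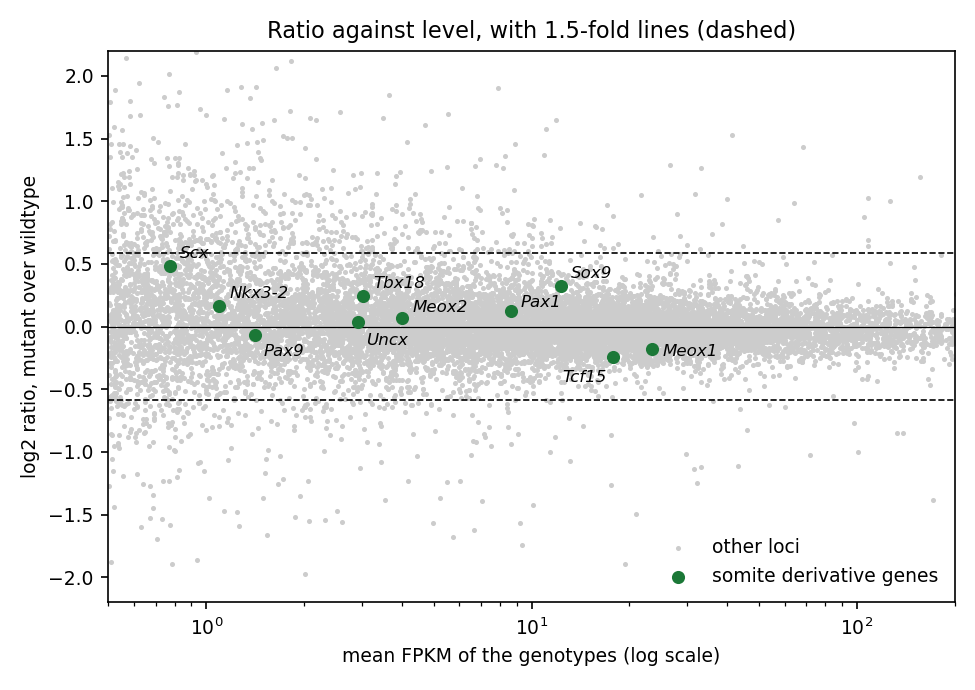
Log2 ratio of Smchd1MommeD1/MommeD1 over Smchd1+/+ (vertical axis) against mean FPKM (horizontal axis, log scale) for the somite derivative genes (green, named) and the other entries with a mean of 0.5 to 200 FPKM and a log2 ratio within the axis range (grey); dashed lines are 1.5-fold. All 10 named genes lie between the dashed lines, inside the grey cloud, which narrows as the level goes up.

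Ratios of one gene to another within a genotype, which do not depend on scaling between the libraries, were taken after the values were seen. *Sox9*, the counted gene with the highest ratio, was set against the counted genes with the lowest ratios and against *Pax1*. Its contrasts with the lowest ones are therefore wide by choice. *Sox9* was at 0.623 of the *Meox1* level in Smchd1MommeD1/MommeD1 and 0.439 in Smchd1+/+ embryos, and at 0.842 and 0.567 of the *Tcf15* level. On the log2 scale these ratios differed between genotypes by 0.51 and 0.57. Against *Pax1*, *Sox9* was at 1.52 and 1.33 times its level, a difference of 0.20. *Meox1* and *Tcf15* kept close to each other, with a ratio of 1.35 and 1.29. Against *Col2a1*, the cartilage collagen gene that it activates, *Sox9* had ratios of 0.221 and 0.218, also taken after the values were seen. Of 7 counted sclerotome targets and cartilage genes, 5 were higher and 2 lower, against 48.3% higher among all entries. *Hapln1*, one of the lower ones, had a log2 ratio of -0.28.

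Some genes that precede the somite were lower in the mutant embryos by 1.5-fold or more, while others were higher by less than 1.5-fold. In a list of 12 genes of the presomitic mesoderm and segmentation, 8 had a mean of at least 1 FPKM, of which 5 were higher and 3 lower, and all 3 lower ones by 1.5-fold or more, against 1.46% of all entries. *Hes7*, an oscillating repressor of the segmentation clock, was at 0.922 FPKM in Smchd1MommeD1/MommeD1 and 2.83 FPKM in Smchd1+/+ embryos, a log2 ratio of -1.52. *Msgn1* (mesogenin), a determinant of presomitic mesoderm, was at 2.88 and 7.57 FPKM, a log2 ratio of -1.36. *Tbx6*, the T-box gene that commits cells to paraxial mesoderm, was the other, at 1.67 and 3.004 FPKM with a log2 ratio of -0.81. The 5 higher genes, *Nrarp*, *Lfng*, *Dll1*, *Dll3* and *Notch1*, encode ligands, a receptor and modifiers of the Notch pathway. *Nrarp*, a target and inhibitor of Notch signalling and the most abundant gene there, was at 31.0 and 21.8 FPKM, a log2 ratio of 0.50. *Lfng*, which encodes a glycosyltransferase that modifies Notch, was at 17.2 and 15.9 FPKM, a log2 ratio of 0.12. The log2 ratios of *Dll3*, *Notch1* and *Dll1* were 0.39, 0.32 and 0.04. Among entries of like level, 1.7% lay at least as far from 0 as *Nrarp*, 8.2% as *Dll3*, 7.9% as *Notch1*, 44.8% as *Lfng* and 79.7% as *Dll1*. The median of this list was 0.08 over entries of at least 1 FPKM and -0.70 with all 12 entries, since the 4 entries below 1 FPKM were all lower. One of them was *Ripply2*, which ends the presomitic programme at the forming boundary, at 0.327 and 1.13 FPKM. *Tcf15* was 9.74 times as abundant as *Tbx6* in Smchd1MommeD1/MommeD1 and 6.42 times in Smchd1+/+ embryos, and *Meox1* was 7.62 and 3.29 times as abundant as *Msgn1*.

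Genes that work beside the 10 factors in the formed somite lay on each side of 0. Of 14 regulators and partners, such as *Cdh2* (N-cadherin, which holds the somite epithelium together), 7 were higher and 7 lower, with a median of -0.01 that turned to 0.04 when FPKM was rescaled to the same total over all loci, but was -0.02 with the same total over named loci of at least 200 bp. None differed by 1.5-fold, which with 3.54% of all entries higher and 1.46% lower by that fold is near the background. *Cdh2* was at 62.8 FPKM in Smchd1MommeD1/MommeD1 and 65.7 FPKM in Smchd1+/+ embryos. The widest in this list were *Zic1*, a zinc finger gene of dorsal neural tube and dorsal somite, with a log2 ratio of 0.51, and *Tbx1*, a T-box gene of pharynx and sclerotome, with -0.33.

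The dermomyotome, the dorsal part of the somite, gives rise to muscle. Of 14 dermomyotome and early muscle genes, 11 had a mean of at least 1 FPKM, of which 8 were higher and 3 lower, with a median of 0.13 (0.32 with all 14), against 48.3% higher among all entries. Several of these genes, *Pax3*, *Pax7*, *En1* and *Sim1* among them, are also expressed in the neural tube or brain, and neuron genes had a median of 0.97. Their part in these values was not tested. *Myog* (myogenin), which drives differentiation of muscle cells, was the single gene of these 11 past 1.5-fold, where 3.54% of all entries were higher by that fold, at 3.98 and 1.67 FPKM with a log2 ratio of 1.21. *Pax3*, a paired-box gene of the dermomyotome, was at 10.8 and 9.52 FPKM, a log2 ratio of 0.18, and its relative *Pax7* at 3.53 and 2.42 FPKM, a log2 ratio of 0.53. *Lbx1*, which marks migrating muscle precursors and also dorsal spinal cord neurons, was at 1.21 and 0.430 FPKM, below the mean of 1 FPKM. *Myf6* and *Myod1* were also below that mean. All 3 were higher by more than 1.5-fold, with log2 ratios of 1.31 for *Lbx1*, 0.72 for *Myf6* and 1.32 for *Myod1*. At such low levels the ratios of all genes scattered widely. The level of *Myog* was 0.181 of that of *Meox1* in Smchd1MommeD1/MommeD1 and 0.0669 in Smchd1+/+ embryos.

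Cartilage and connective tissue genes differed in both directions, with shares of higher genes to be read against 48.3% among all entries. Of 12 sclerotome targets and cartilage genes, 7 were counted, 5 of them higher and 2 lower, with a median of 0.28 (0.18 with all 12), and none past 1.5-fold. By that fold 3.54% of all entries were higher and 1.46% lower. *Col2a1* was at 61.8 FPKM in Smchd1MommeD1/MommeD1 and 50.1 FPKM in Smchd1+/+ embryos, a log2 ratio of 0.30. *Col11a1*, a minor fibril collagen gene, had the highest log2 ratio of the 7, 0.37. *Hapln1*, which encodes a link protein of cartilage matrix, was among the lower ones, at 26.8 and 32.6 FPKM with a log2 ratio of -0.28. Of 9 tendon and connective tissue genes, 8 were counted, 5 of them higher and 3 lower, with a median of 0.28. *Col3a1* was at 86.7 and 60.7 FPKM, a log2 ratio of 0.51, *Col1a1* at 56.3 and 46.9 FPKM, 0.26, and *Dcn* (decorin) at 3.34 and 2.23 FPKM, 0.57. The 3 lower genes were *Mkx*, a homeobox gene of tendon, at -0.18, *Tnc* (tenascin C) at -0.18 and *Postn* (periostin) at -0.08. *Tnmd* (tenomodulin), the marker of mature tendon cells, was listed at 0 in each genotype. These collagens are made by many mesenchymal cells besides those of the somite.

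The signals that instruct the somite were mostly at close levels in the genotypes. Of 14 notochord and Hedgehog genes, 12 were counted, 3 higher and 9 lower, with a median of -0.07. Among all entries 48.3% were higher and 51.7% lower. *Ptch1*, the Hedgehog receptor and a target of the pathway, was at 31.5 FPKM in Smchd1MommeD1/MommeD1 and 36.8 FPKM in Smchd1+/+ embryos, a log2 ratio of -0.23, and *Smo*, the transducer, at 83.5 and 84.0 FPKM. The single gene of these 12 past 1.5-fold was *T* (brachyury), at 3.23 and 7.75 FPKM with a log2 ratio of -1.24. By that fold 1.46% of all entries were lower and 3.54% higher. *T* is expressed in the tail bud as well as in notochord. Of 12 Fgf, Bmp and Wnt genes that act on the somite, 11 were counted, 3 higher and 8 lower, with a median of -0.07 and none past 1.5-fold. *Fst* (follistatin), an inhibitor of activin and Bmp signals, was the lowest at -0.47, *Wnt11* was at -0.28, and *Sfrp2* and *Fgfr1*, the most abundant, were at 0.11 and 0.00.

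**Figure D3:**
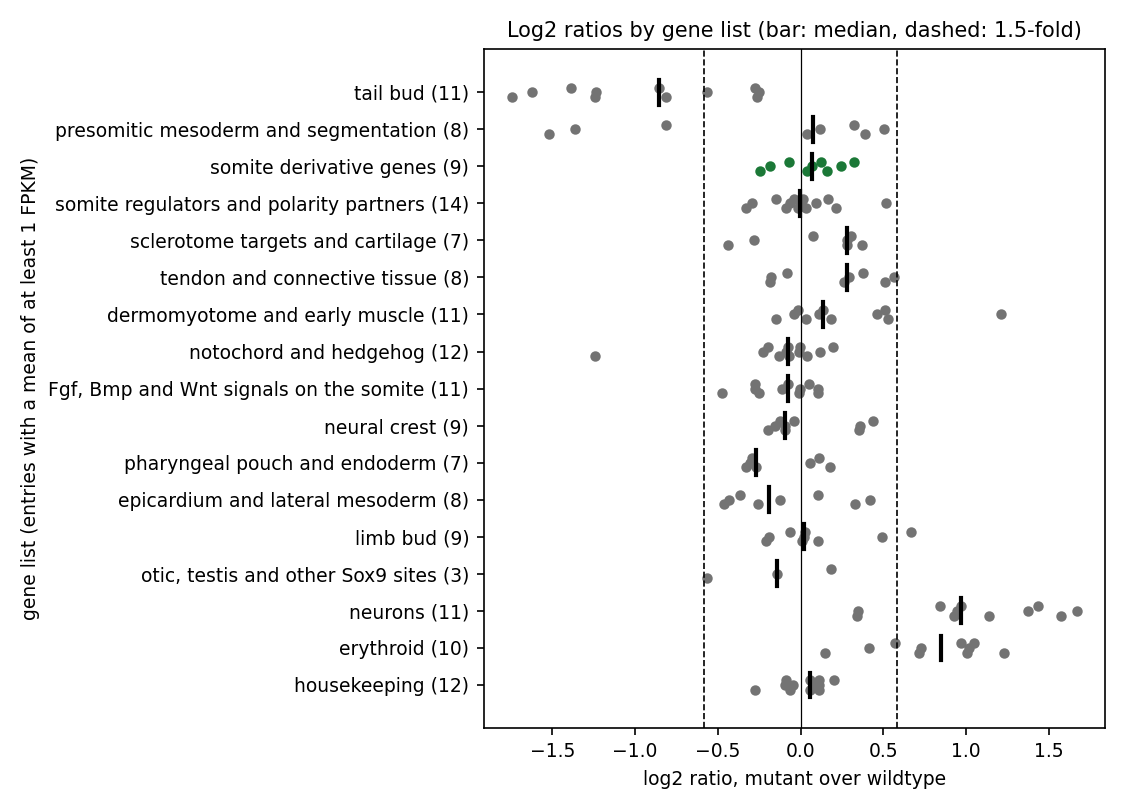
Log2 ratios of Smchd1MommeD1/MommeD1 over Smchd1+/+ for the entries of each gene list with a mean of at least 1 FPKM (points; bars are medians, dashed lines 1.5-fold, and points are spread vertically only for visibility). The somite derivative genes (green) lie between -0.25 and 0.32, between the tail bud genes on the left (median -0.86) and the neuron genes on the right (median 0.97).

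Marker lists of other places that express the 10 factors each held higher and lower genes. Their counts are to be read against 48.3% higher and 51.7% lower among all entries. For *Sox9*, of 9 neural crest genes 3 were higher and 6 lower (median -0.10), summing to 69.4 FPKM in Smchd1MommeD1/MommeD1 and 67.7 FPKM in Smchd1+/+ embryos. *Ets1*, the most abundant, had a log2 ratio of -0.20, *Ednrb* had 0.36 and *Tfap2b* 0.44. Of 8 genes of the ear placode, gonad and other *Sox9* sites, 3 were counted (*Pax2*, *Sox8* and *Pax8*), 1 higher and 2 lower, with a summed level of 9.30 and 9.65 FPKM over all 8. *Pax2*, the most abundant of them, had a log2 ratio of -0.14, *Sox8* 0.18 and *Pax8* -0.57. Their median of -0.14 rests on 3 genes and became 0.06 when, with FPKM rescaled to the same total over all loci, *Gdnf*, a growth factor gene, also reached a mean of 1 FPKM. With the same total over named loci of at least 200 bp it was -0.16. For *Pax1* and *Pax9*, of 7 counted entries of pharyngeal pouch and endoderm 3 were higher and 4 lower (median -0.27), summing over all entries to 101.9 and 105.1 FPKM, with *Sox2*, which is also a neural tube gene, the most abundant (47.1 and 43.6 FPKM). The median was -0.07 with all entries. *Tbx1* (-0.33) and *Epcam* (-0.30), an epithelial adhesion gene, were the farthest from 0 among the 7 counted entries, and *Hoxa3*, a pharyngeal arch Hox gene, was at 0.06. For *Tbx18*, of 8 epicardium and lateral mesoderm genes 3 were higher and 5 lower (median -0.19), summing to 67.3 and 77.3 FPKM. *Aldh1a2*, the retinoic acid synthesis gene and the most abundant of them, was at -0.36, *Hand2*, a gene of lateral mesoderm, at 0.10, *Gata4* at -0.43 and *Tbx20*, a cardiac T-box gene, at -0.46. The higher genes included *Wt1* (0.42) and *Upk3b* (0.33), which mark epicardium and other mesothelium, while *Tcf21* of the same list was lower (-0.13). The median of this list was -0.36 among genes with a mean of 5 FPKM or more. Of 9 limb bud genes, 6 were higher and 3 lower (median 0.02), summing to 115.7 and 105.1 FPKM, with *Prrx2*, the most abundant, at 0.03, *Lmx1b*, a gene of dorsal limb, at 0.67 and *Prrx1* at 0.49. *Lmx1b* was the single counted gene of these 5 lists past 1.5-fold. By that fold 3.54% of all entries were higher and 1.46% lower. No gene of these 5 lists was listed at 0 in both genotypes, and their part in the values of the 10 factors was not tested.

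Lists for whole tissues lay much further from 0. All 11 counted tail bud genes were lower, 7 of them by 1.5-fold or more against 1.46% of all entries, with a median of -0.86. *Cdx4* and *Cdx2*, the homeobox genes of the posterior embryo, were at 4.24 and 14.4 FPKM and at 3.22 and 10.1 FPKM. The list shares 4 genes with the lists above, among them *T* and *Tbx6*. All 11 counted neuron genes were higher, 9 of them by 1.5-fold or more against 3.54% of all entries, with a median of 0.97, and *Tubb3*, the most abundant, was at 99.9 and 36.95 FPKM. *Gap43* had the lowest log2 ratio, 0.34, *Nefm*, a neurofilament gene, had 1.57 and *Dcx* (doublecortin) 1.67. All 10 erythroid genes were higher, 7 by 1.5-fold or more against the same 3.54%, with a median of 0.85. Their summed level was 12738 FPKM in Smchd1MommeD1/MommeD1 and 6038 FPKM in Smchd1+/+ embryos, most of it globin. *Hba-x*, the most abundant, had a log2 ratio of 1.02, *Hbb-y* 1.23 and *Alas2*, the first enzyme of heme synthesis in red cells, 1.05. The 12 housekeeping genes had a median of 0.06 and none past 1.5-fold, with *Eef1a1* at 0.05, *Ppia* at -0.06 and *Pgk1* at -0.27. The part of these tissue differences in the ratios of the somite derivative genes was not tested. All tail bud, neuron and erythroid medians lay outside the range of the 9 counted somite derivative genes, whose lowest log2 ratio was -0.25 and whose highest was 0.32.

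Within their own gene families, the factors held different places. Of the 9 *Pax* genes, *Pax1* was the third most abundant in Smchd1+/+ embryos, after *Pax6* and *Pax3*, and *Pax9* the eighth, with only *Pax4* below it. The 8 *Pax* genes whose mean reached 1 FPKM had a median log2 ratio of -0.09, from *Pax8* at -0.57 to *Pax7* at 0.53, so *Pax1* and *Pax9* were among the genes closest to 0. *Sox9* was the eighth of 19 *Sox* genes in level, and of the 16 counted it had the highest log2 ratio. Of these 16, 11 were higher and 5 lower, with a median of 0.10, against 48.3% higher among all entries. The other SoxE genes, *Sox10* and *Sox8*, were at -0.04 and 0.18. *Tbx18* was the tenth of 17 T-box genes, of which 10 were counted, 4 higher and 6 lower. Its closest relative *Tbx15*, a gene of limb and craniofacial mesenchyme, was at 1.53 FPKM in Smchd1MommeD1/MommeD1 and 0.388 FPKM in Smchd1+/+ embryos, a mean below 1 FPKM.

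**Figure D4:**
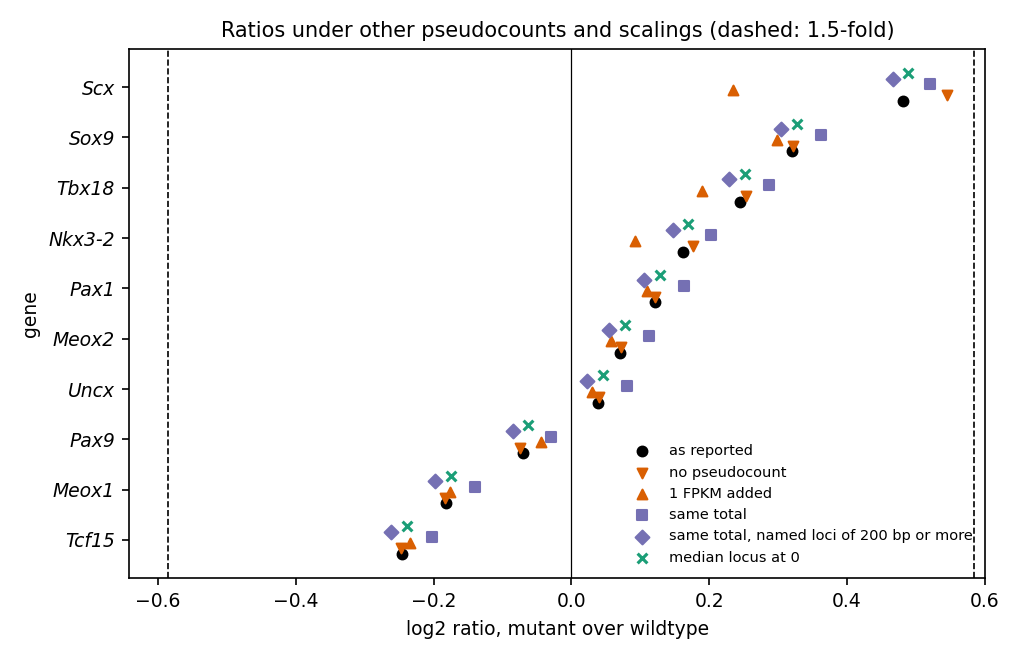
Log2 ratios of the 10 somite derivative genes under 6 settings: as reported, without a pseudocount, with 1 FPKM added, with mutant values rescaled to the same total over all loci or over named loci of at least 200 bp, and with the median locus set to 0 (dashed lines are 1.5-fold). Each gene keeps its side of 0 in all 6 settings, and *Scx* moves most.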

How the data were processed

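RNA from 6 male E9.5 embryos, 3 Smchd1+/+ and 3 Smchd1MommeD1/MommeD1, was sequenced by the authors, and the labels' genotype set the groups. Per the submitters' processing notes, reads were mapped to mm10 with TopHat2 2.0.6 and Bowtie2 2.0.2, and Cuffdiff 2.0.2 of Cufflinks 2.0.2 compared the genotypes. The authors deposited 1 pooled FPKM value per genotype for 24207 entries. The paper's copy of the table names the genotype of each column. The deposited table also holds the authors' fold changes, test statistics, p-values and q-values, which were not used here.

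A log2 ratio was taken after adding 0.1 FPKM to each value. Lists were summarised by counts and the median over entries whose mean reached 1 FPKM, and 1.5-fold was the size counted. The 135 entries that the authors' program marked as failed or as having too many reads were left out. Pooled values allowed no test across embryos, and likeness of expression patterns could not be measured. Each ratio was set beside those of entries with a mean within 2-fold. The table has no read counts, so no interval from counting was computed.

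The 10 genes and the 16 other lists were chosen with earlier results of these data known. Genes named from a list were the 2 most abundant and the 2 farthest from 0 in log2 ratio, plus genes overlapping the 10. Some items that this rule or the window comparison gave are not reported here. *Tbx6*, *Ripply2*, *Dll1*, *Dll3*, *Notch1*, *Lbx1*, *Myf6*, *Myod1*, *En1*, *Sim1*, *Mkx*, *Tnc*, *Postn*, *Tnmd*, *Wt1*, *Upk3b*, *Tcf21*, *Gdnf*, *Tbx15*, *Sox10*, *Pax4* and *Pax6*, the ratios within a genotype and the families were chosen after their values were seen. Gene models and coding windows came from GENCODE M21. Alternatives were other pseudocounts, scalings, filters, folds and entries. The steps were tested on simulated data. Python 3.11.15, numpy 2.4.6, pandas 2.3.3 and matplotlib 3.10.9 were used.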

Additional observations from a re-analysis of the deposited data

How the results depend on the processing

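Of 13 alternatives, 6 (pseudocounts and scalings) can alter the ratio of a single gene. In these 60 values the ratio of each of the 10 genes kept its direction, and 1 moved by more than 0.1, that of *Scx* with 1 FPKM added (0.24). Ranges were -0.20 to -0.14 for *Meox1*, -0.26 to -0.20 for *Tcf15*, 0.30 to 0.36 for *Sox9* and 0.02 to 0.08 for *Uncx*. A minimum mean of 5 FPKM left 4 of them (*Meox1*, *Tcf15*, *Sox9* and *Pax1*), 2 higher and 2 lower, with a median of -0.031, since fewer genes were counted. None passed 1.5-fold under any of these, nor 2-fold. The lower fold tried was passed by none of the 9 counted genes with the values as reported. *Sox9* lay at its edge, and was beyond it with no pseudocount, with 0.01 FPKM added, with the median locus at 0 (0.33) and with the same total over all loci (0.36), but not with the same total over named loci of at least 200 bp (0.30), while *Scx*, which was not counted, was past it at 0.48. *Pax9* and *Scx* gave no value among entries alone in their locus. Of 207 values for the medians of the other lists, 15 moved by more than 0.1. Medians turned for presomitic genes with no filter or a minimum mean of 0.1 FPKM (-0.70 under each). For *Sox9* sites the median turned with these same filters (0.02 under each) or the same total over all loci (0.06), all of which count more genes. That of somite regulators turned with the same total over all loci (0.04), the median locus at 0 (0.0017) or a minimum of 5 FPKM (0.01). The same total over named loci turned none. The median of all loci shifted to at most 0.04 under any scaling. No paired analysis was possible because 1 pooled value per genotype was used, and for the same reason no embryo could be left out. Library depth, and with it the precision of the genes near 1 FPKM, is unknown.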
